A study of Mus musculus with 5 samples.

Results

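Hepatocytes of mice on a high fat diet were divided by whether they held a transcript of Apoa4, the gene of apolipoprotein A-IV, and every other gene was compared between both classes within each mouse. The classes were chosen by the Apoa4 count of each cell. A cell was Apoa4 positive with 1 or more Apoa4 UMIs (unique molecular identifiers, each counting 1 captured mRNA) and Apoa4 negative with 0, after all cells had been thinned at random to 1728 UMIs. Of the 454 cells of the series, 233 came from the 2 mice compared, and 148 of those reached 1728 UMIs. They comprised 71 positive and 77 negative cells. HFD mouse 2 gave 62 positive and 72 negative cells of its 208, and HFD mouse 3 gave 9 and 5 of its 25.

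All animals were C57BL/6J males from the same litters, aged 8 weeks when the 12 weeks of feeding began. The HFD group (3 mice) received high fat food and the LFD group (2 mice) regular food. Drop-seq, which captures single cells in droplets with barcoded beads, gave 1 hepatocyte library per mouse. The LFD mice served as the background for how often Apoa4 was found. The labels name no difference between the groups besides the food.

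Apolipoprotein A-IV is a secreted protein of chylomicrons, very low density lipoprotein (VLDL) and HDL that is made mainly by the intestine and, in rodents, also by the liver. Hepatic Apoa4 is a known target of the transcription factors HNF4A and CREBH (gene Creb3l3), and is known to be induced when the liver stores triglyceride. Hepatocytes differ along the lobule. Those around the portal vein make urea, glucose and many plasma proteins. Those around the central vein hold most of the drug-metabolising cytochromes and, in the innermost layer, glutamine synthetase.

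Apoa4 lies on chromosome 9 at 46240696-46243459 on the plus strand (GENCODE on GRCm38, the mm10 assembly), with 3 exons. Apoa1 (46228580-46230466), Apoc3 (46232933-46235636, minus strand) and Apoa5 (46268633-46271919) are its neighbours in the cluster. The 102 bases before the GENCODE start, chr9:46240594-46240695, are shown from the RefSeq promoter table (GRCm38.p6), because Apoa4 defines the classes. That table's 300-base window, chr9:46240594-46240893, holds 250 bases before and 50 after its own start, which lies downstream of the GENCODE start. The distance from the match to the start therefore differs between both annotations. The bases shown hold the only match in the 300-base promoter window, searched on both strands, to CAAAGTNCA, the core of the HNF4A motif, in capitals.
Apoa4: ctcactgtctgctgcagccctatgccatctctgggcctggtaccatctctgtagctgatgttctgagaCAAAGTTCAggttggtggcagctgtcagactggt
Such a match stood in 1.41% of the 32851 promoters of the table (464 promoters). It is a match of letters only; binding was not measured.

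Apoa4 was sparse in every HFD cell that held it. In HFD mouse 2, 72 cells had 0 Apoa4 UMIs, 39 had 1, 17 had 2 and 6 had 3 or more, with 5 the most in a cell. In HFD mouse 3 the same numbers were 5, 4, 2 and 3 cells, with 6 the most. The positive share, which the rule itself defines, was 46.3% in HFD mouse 2 (exact 95% binomial interval 37.6% to 55.1%) and 64.3% in HFD mouse 3 (35.1% to 87.2%). It was 4.39% in LFD mouse 1 (5 of 114 cells) and 8.11% in LFD mouse 2 (6 of 74 cells). The shares of both HFD mice lay above those of both LFD mice. Thinning sets the level of these shares: in HFD mouse 2 the share was 29.6% at 1000 UMIs, 55.3% at 2500 UMIs and 58.7% without thinning. For HFD mouse 3 it was 33.3% at 1000 UMIs, 66.7% at 2500 UMIs and 48% without thinning, when all 25 cells entered. All cells of the table were labelled hepatocytes, so no cell type that should lack Apoa4 was at hand as a measure of free RNA, whose part was not tested.

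**Figure D1:**
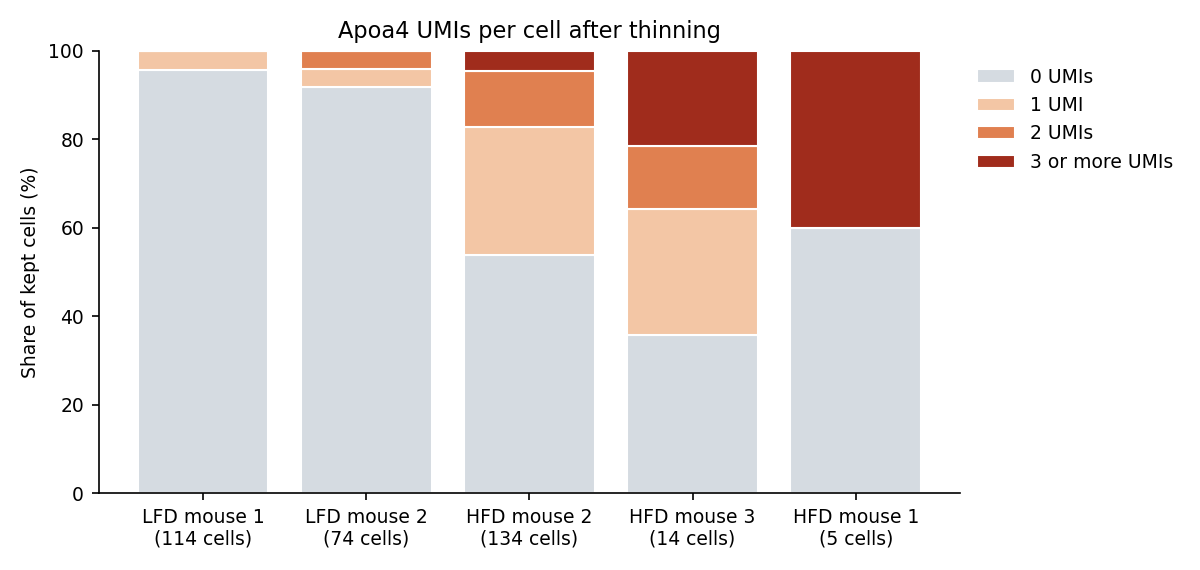
Share of kept cells (%) with 0, 1, 2 or 3 and more Apoa4 UMIs after thinning to 1728 UMIs, 1 bar per mouse. Cells with 0 UMIs, the Apoa4 negative class, are 109 of 114 and 68 of 74 cells in the LFD mice, and 72 of 134 and 5 of 14 in HFD mice 2 and 3.

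A boundary between 0 and 1 UMI divides cells of overlapping Apoa4 level. Each cell had further UMIs that thinning had set aside and that were not used for the call. In these, Apoa4 stood at 449 CPM (UMIs of the gene scaled to 1e+06 UMIs of all genes) in positive cells of HFD mouse 2 (57 UMIs, exact 95% Poisson interval 340 to 582) and at 311 CPM in negative cells (61 UMIs, 238 to 399), a ratio of 1.45. In HFD mouse 3 the set-aside level was 986 CPM in positive cells (15 UMIs, 552 to 1626), while negative cells had 0 UMIs (0 to 1054). In another random draw of the thinning, 80.6% of the kept cells of HFD mouse 2 (108 of 134) and all 14 of HFD mouse 3 fell into the same class. The variance of the Apoa4 UMIs over cells of HFD mouse 2 was 1.31 times their mean, where counting alone gives 1. Of 229 genes with a mean within 1.5 times that of Apoa4, 49 had a larger ratio, and their median was 1.11. Negative is thus a label for cells without an Apoa4 UMI at this depth. In HFD mouse 2, 27 of the 72 negative and 24 of the 62 positive cells held Apoa4 among their set-aside UMIs, of which negative cells had more (196336 against 126890 in all). In LFD mouse 1 the set-aside level was 236 CPM in positive and 55.8 CPM in negative cells, and in LFD mouse 2 98.6 and 95.4 CPM. The positive LFD levels rest on 2 and 1 UMIs.

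**Figure D2:**
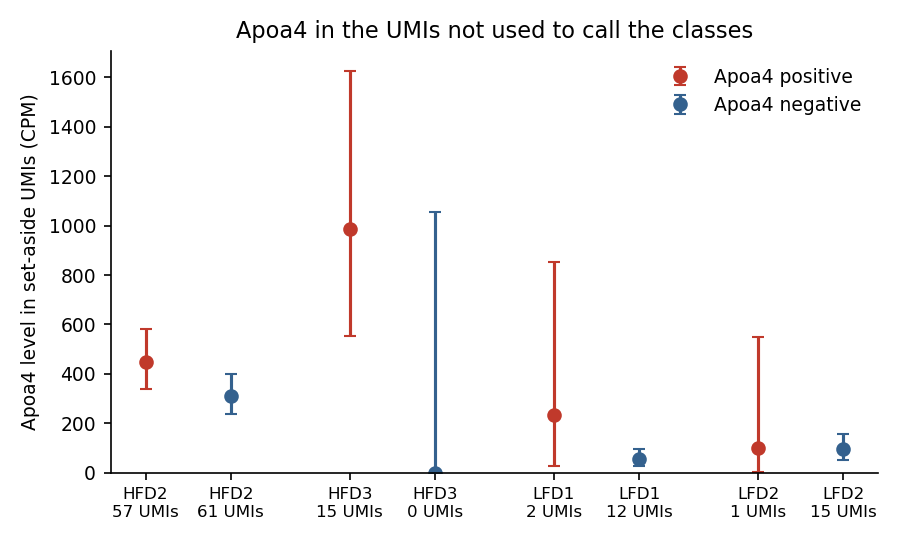
Apoa4 level (CPM) in the UMIs that thinning set aside, by class and mouse, with exact 95% Poisson intervals as bars and the Apoa4 UMIs below each point. The intervals of the classes overlap in HFD mouse 2 (449 against 311 CPM) and in HFD mouse 3.

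Both classes were hepatocytes by their markers. Alb, Apoa1, Apoa2, Fabp1, Ttr, Trf and Apoc3 had UMIs in every positive and negative cell of both HFD mice, Serpina1a in 88.9% or more of each class, Cps1 in 73.6% or more and Apob in 33.3% to 56.5%. Of the enterocyte markers, Fabp2 had 39 UMIs in positive and 37 in negative cells of HFD mouse 2, and Alpi, Vil1, Sis, Mep1a and Cdx2 had 0 in both HFD mice. Macrophage markers came to at most 16.1 CPM in any HFD class of mice 2 and 3, stellate markers to at most 16.1 CPM and cholangiocyte markers to at most 18.7 CPM. Endothelial markers reached 46.7 CPM in positive and 8.04 CPM in negative cells of HFD mouse 2, over 5 and 1 UMIs. Erythroid markers stood at 1620 CPM in the 5 negative cells of HFD mouse 3 (14 UMIs, 9 of them Hbb-bs) and at 257 CPM in its positive cells, and their part in the values of this mouse was not tested. Before thinning, positive cells were shallower in HFD mouse 2 (median 2735 against 3561 UMIs) and deeper in HFD mouse 3 (3247 against 2327). At 1728 UMIs the classes held a median of 722 and 729 genes in HFD mouse 2 and of 710 and 737 in HFD mouse 3. The mice shared 0 cell barcodes.

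Apoa4 positive cells carried fewer transcripts of pericentral genes and more of periportal genes than negative cells. The 36 pericentral genes summed to 14542 CPM in positive and 22553 CPM in negative cells of HFD mouse 2, and to 13375 and 17824 CPM in HFD mouse 3. The 27 periportal genes summed to 78937 against 69348 CPM in HFD mouse 2, and to 84105 against 66551 CPM in HFD mouse 3. Alb alone made 53.4% to 58.4% of these periportal sums. Without Alb, left out after the values were seen, they were 32809 against 29691 CPM and 38194 against 31018 CPM. Both HFD mice therefore showed the same order in both lists, with and without Alb. The few positive LFD cells did too, with 20255 against 21847 CPM of pericentral transcripts in LFD mouse 1 and 13985 against 25259 CPM in LFD mouse 2, and 89815 against 77722 and 107446 against 81614 CPM of periportal transcripts. With 2 mice per diet these sums were compared as values, with no test.

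**Figure D3:**
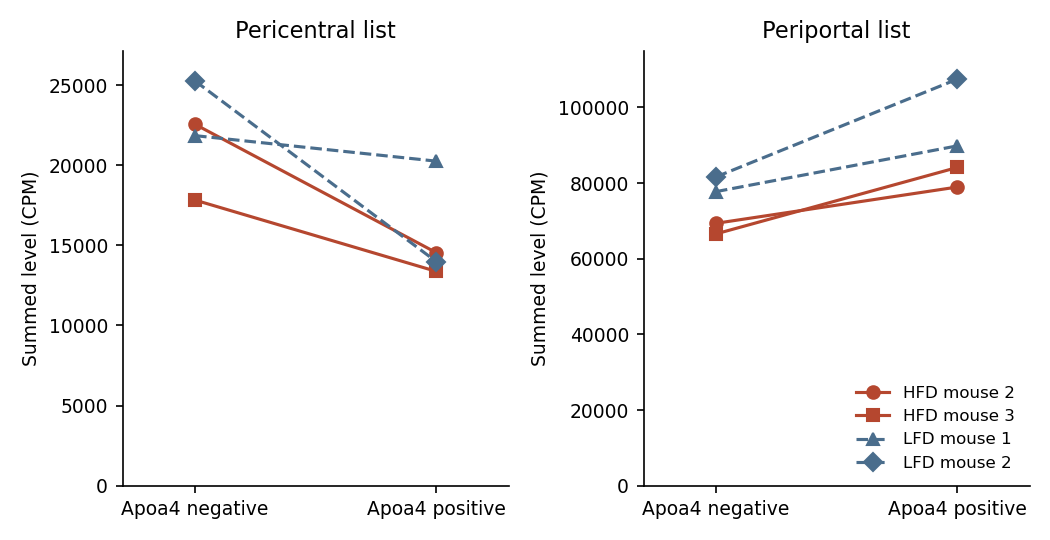
Summed level (CPM) of the 36 pericentral genes (left) and the 27 periportal genes (right) in Apoa4 negative and positive cells, 1 line per mouse. All 4 lines descend for the pericentral list (22553 to 14542 CPM in HFD mouse 2) and ascend for the periportal list.

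The same shift appeared in single cells. A zone score, the log2 of pericentral over periportal UMIs with 1 added to each, is low in periportal cells. Its median was -2.88 in positive and -1.72 in negative cells of HFD mouse 2, and -2.98 against -1.60 in HFD mouse 3. The classes overlapped widely, with positive cells of HFD mouse 2 from -4.56 to 0.69 and negative cells from -4.10 to 0.71. LFD mouse 1 had medians of -3.19 and -2.18, and LFD mouse 2 of -3.06 and -2.51, over 5 and 6 positive cells. Their difference turned to 0.070 in LFD mouse 1 at 1000 UMIs and to 0.068 in LFD mouse 2 at 2500 UMIs. The difference of medians in HFD mouse 2 stayed below 0 in all 10 settings tried for thinning, class call, cell filter and score (-1.50 to -0.75). In HFD mouse 3 it was below 0 in 8 of 10, and was 0.38 at 1000 and 0.13 at 2500 UMIs. The result thus rests on HFD mouse 2, as HFD mouse 3 had 14 kept cells. Without the genes of secreted proteins in the score (Alb, Apoa1, Apof, Trf, Serpina1c, Igf1) the differences were -1.12 and -1.27. When the cells of HFD mouse 2 were divided at their median depth, the difference was -0.86 in the shallower and -1.31 in the deeper cells.

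**Figure D4:**
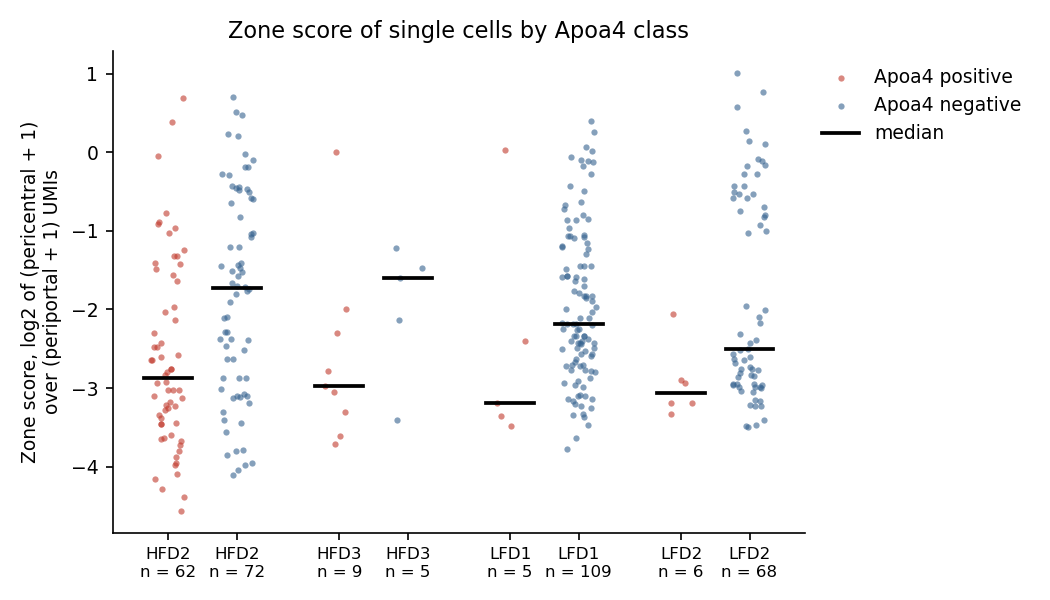
Zone score (log2 of pericentral plus 1 over periportal plus 1 UMIs) of each kept cell by Apoa4 class and mouse, with medians as black lines. The medians of positive cells lie lower in each of the 4 mice, and the classes overlap.

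Read the other way, the share of positive cells in HFD mouse 2 followed the zone, and depth before thinning ran along the same order. Among the most periportal tertile of the cells of HFD mouse 2, 27 of 44 were positive (61.4%, exact 95% binomial interval 45.5% to 75.6%). The share was 46.7% in the middle tertile (21 of 45) and 31.1% in the pericentral tertile (14 of 45, 18.2% to 46.6%). Median depth before thinning was 2584, 3162 and 3803 UMIs in the periportal, middle and pericentral tertiles. When this mouse was divided at its median depth, 53.7% of the shallower and 38.8% of the deeper cells were positive. The part of depth in the order of the tertiles was not tested. In HFD mouse 3 the tertiles held 3 of 4, 4 of 5 and 2 of 5 positive cells, which does not set an order. Sums per Apoa4 UMI followed as well in HFD mouse 2. The pericentral level was 22553 CPM in cells with 0, 15551 with 1, 13617 with 2 and 10610 with 3 or more Apoa4 UMIs, and the periportal level was 69348, 75840, 81495 and 91821 CPM in the same cells. Cells just inside the boundary, with 1 UMI, had a median zone score of -2.75, and those just outside it, with 0, of -1.72. The median was -3.23 in the 17 cells with 2 UMIs and -2.96 in the 6 cells with 3 or more, so the score did not fall at every step. In HFD mouse 3 the pericentral levels, 17824, 13166, 15336 and 12346 CPM, were not in order.

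Gene by gene, 601 genes passed the minimum and were tested by limma voom over the sums per mouse and class. A single gene, Mup20, passed an adjusted p of 0.05, which is 0.166% of the genes tested. At an unadjusted p under 0.05 there were 29 genes (4.83%), 13 with higher and 16 with lower levels in positive cells. Genes other than Mup20 are therefore described by their values and not as changed. Over all 601 genes the log2 fold changes had a median of -0.01, and their SEs a median of 0.38. Levels lower in positive cells in both HFD mice were found for 26.5% of tested genes (159), and levels higher in both for 25% (150).

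Mup20, a major urinary protein of male mouse liver known as darcin that carries pheromones, was the gene past the threshold. It stood at 23897 CPM in positive and 16686 CPM in negative cells of HFD mouse 2, and at 7340 against 4514 CPM in HFD mouse 3. Positive cells were the higher class in both mice, though the level differed between the mice by more than it did between the classes. The log2 fold change was 0.55 (SE 0.10, limma voom adjusted p = 0.0458, n = 2 mice). LFD mice showed 14476 against 12668 CPM and 17666 against 13931 CPM. The call was fragile. Mup20 was higher in positive cells in all 22 alternatives (0.36 to 0.72) and past the threshold in 10 of them, with limma adjusted p from 1.84e-30 to 0.998. Those 10 include all 6 settings in which limma estimated infinite prior degrees of freedom, so that all genes shared 1 variance trend. The smallest adjusted p, with a minimum of 1 UMI, came from such a setting. With library size alone the adjusted p by limma voom was 0.0549, and with the trimmed mean over all genes, the normalization run first, 0.989. Without HFD mouse 2 it was 0.979 and without HFD mouse 3 0.997.

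Other major urinary protein genes did not share one direction. Mup3 was at 42685 against 37921 CPM in HFD mouse 2 and at 15323 against 10995 CPM in HFD mouse 3 (log2 fold change 0.24, SE 0.10, limma voom adjusted p = 0.859). Of the 5 tested members of the family 3 lay above and 2 below 0, with a median log2 fold change of 0.24 against -0.01 over all genes. Reads of these near-identical genes can be shared between copies, so their separate levels are uncertain. Mup20 and Mup3 are among the more divergent copies.

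**Figure D5:**
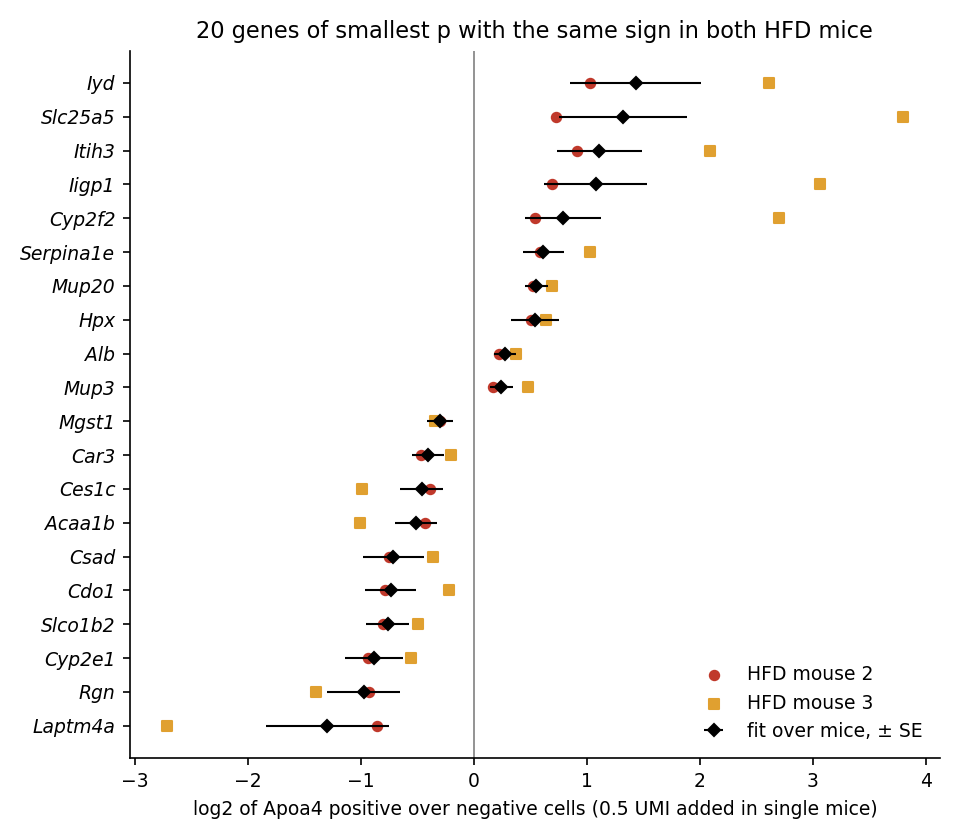
Log2 of the level in Apoa4 positive over negative cells for the 20 named genes of smallest p with one sign in both HFD mice. Diamonds give the limma voom estimate ± SE and coloured points each HFD mouse; Mup20 (0.55) alone is past the threshold, and points of HFD mouse 3 spread widest for genes with few UMIs.

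In the main fit the tested pericentral genes all lay on the same side of 0. Of the 36 genes 11 passed the minimum, and each of these lay below 0, at a median log2 fold change of -0.44. In both HFD mice 10 of the 11 were lower in positive cells, beside 26.5% of all tested genes. At an unadjusted p under 0.05 there were 6, beside 4.83%, and 0 passed the adjusted threshold. The 11 were Aldh3a2, Rgn, Cyp2e1, Slco1b2, Cyp2c29, Akr1c6, Pon1, Car3, Ces1d, Ces3a and Gstm1. The list's median stayed below that of all genes in all 22 alternatives (-0.77 to -0.37). Single members lay above 0 in some of them, 3 of 12 at 1000 UMIs, 2 of 17 with all UMIs of the same cells and 2 of 18 without thinning. The split was 3 of 16 above 0 with a halved minimum and 3 of 23 with a minimum of 1 UMI, but 0 of 12 at 2500 UMIs.

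Cyp2e1, the ethanol-oxidising cytochrome, stood at 1177 against 2259 CPM in positive and negative cells of HFD mouse 2 and at 1030 against 1505 CPM in HFD mouse 3 (log2 fold change -0.88, SE 0.26, limma voom adjusted p = 0.453). It had UMIs in 31 of 62 positive and 51 of 72 negative cells of HFD mouse 2, at equal depth. Slco1b2, a sinusoidal carrier for bile acids and drugs, was at 1364 against 2395 CPM and at 1159 against 1620 CPM (log2 fold change -0.76, SE 0.19, limma voom adjusted p = 0.310). In LFD mice Slco1b2 was at 463 against 1210 and 386 against 1353 CPM, on 4 UMIs in the positive cells of each. Slco1b2 was thus lower in positive cells of all 4 mice. Its log2 fold change in HFD mice was -0.17 at 2500 UMIs and -0.32 without thinning, but -1.10 with positive from 2 Apoa4 UMIs. Cyp2e1 was higher in positive cells of LFD mouse 1 (1853 against 1476 CPM) and lower in those of LFD mouse 2 (193 against 1651 CPM, on 2 UMIs in positive cells). The lactonase gene Rgn, which acts in vitamin C synthesis, had 505 against 965 CPM and 515 against 1389 CPM (log2 fold change -0.98). In LFD mouse 1 Rgn was at 695 against 653 CPM, and in LFD mouse 2 at 96.5 against 791 CPM, on 1 UMI in positive cells.

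Car3, a carbonic anhydrase abundant in mouse liver, had 4167 against 5779 CPM in HFD mouse 2 and 4829 against 5556 CPM in HFD mouse 3 (log2 fold change -0.41). Akr1c6, a steroid dehydrogenase, had 1579 against 2138 CPM and 1223 against 1852 CPM (log2 fold change -0.44). Neither passed the adjusted threshold, nor did Slco1b2, Cyp2e1 or Rgn.

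Some defining pericentral genes were too low in HFD mouse 3 to be tested, and were picked out after their values were seen. Glul, the glutamine synthetase of the innermost pericentral layer, had 4 UMIs in 4 of the 62 positive cells and 61 UMIs in 10 of the 72 negative cells of HFD mouse 2, with 22 in a single negative cell. Cyp1a2, a cytochrome of caffeine metabolism, had 5 UMIs in 5 positive and 40 UMIs in 22 negative cells. Both genes were thus found mainly in negative cells of that mouse. Oat, the ornithine aminotransferase, had 23 and 44 UMIs. In HFD mouse 3 the positive and negative cells had 0 and 0 UMIs of Glul, 0 and 2 of Cyp1a2 and 1 and 3 of Oat, which is too few to compare. Not every pericentral gene followed, since Cyp2a5 had 10 and 8 UMIs in HFD mouse 2 and 7 and 0 in HFD mouse 3.

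Of the 27 periportal genes 20 passed the minimum, 18 of them above and 2 below 0, at a median log2 fold change of 0.20. In both HFD mice 14 of the 20 were higher in positive cells, beside 25% of all tested genes. At an unadjusted p under 0.05 there were 3 (Alb, Cyp2f2 and Pck1), beside 4.83% of all tested genes, and 0 passed the adjusted threshold. The genes below 0 were Apof and Uqcrh. The list's median lay above that of all genes in all 22 alternatives (0.11 to 0.35). Cyp2f2, a periportal cytochrome, stood at 747 against 514 CPM in HFD mouse 2 and 1095 against 116 CPM in HFD mouse 3, where the negative cells had 1 UMI (log2 fold change 0.79, SE 0.34, limma voom adjusted p = 0.859). It had UMIs in 45 of 62 positive and 32 of 72 negative cells of HFD mouse 2. Alb, serum albumin, was at 46169 against 39657 CPM and 45970 against 35532 CPM (log2 fold change 0.28, SE 0.10). Trf, the iron carrier transferrin, was at 7324 against 6744 CPM and 10881 against 8449 CPM (log2 fold change 0.19, SE 0.12), and its fold change was below 0 at 2500 UMIs and without thinning.

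Among further secreted proteins of the liver, Serpina1e, an alpha-1-antitrypsin copy, was at 3195 against 2130 CPM in HFD mouse 2 and at 322 against 116 CPM in HFD mouse 3, on 5 and 1 UMIs (log2 fold change 0.62, SE 0.18). Itih3, which binds hyaluronan in the matrix, had 533 against 281 CPM and 708 against 116 CPM (log2 fold change 1.11, SE 0.38). Its last value is 1 UMI, and its log2 fold change was 0.24 at 2500 UMIs, -0.10 at 1000 UMIs and -0.021 without thinning, so its direction depended on the thinning. Hpx, the haem scavenger hemopexin, had 1168 against 820 CPM and 2575 against 1620 CPM, and was also higher in positive cells of both LFD mice (4285 against 2973 and 3958 against 2672 CPM). Its log2 fold change in HFD mice was 0.54 (SE 0.21). None passed the adjusted threshold. Of 13 acute phase genes tested 10 lay above and 3 below 0 (median 0.22), and of 26 in the list of secreted plasma proteins 19 lay above and 7 below (median 0.08).

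The remaining named genes with higher levels in positive cells rested on few UMIs in HFD mouse 3. Iyd, an iodotyrosine deiodinase, had 25 and 14 UMIs in positive and negative cells of HFD mouse 2 and 5 and 0 in HFD mouse 3. Iigp1, an interferon-induced GTPase, had 46 and 33, and 7 and 0. Slc25a5, the mitochondrial ATP and ADP carrier, had 40 and 28, and 12 and 0. With 0 UMIs in 5 negative cells, levels up to 347 CPM are allowed there, so their fitted log2 fold changes (1.43, 1.08 and 1.32) give no size, and those of Iyd and Slc25a5 lay below 0 at 1000 UMIs.

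Named genes with lower levels in positive cells lay partly outside the zone lists. Cdo1 and Csad encode the enzymes that turn cysteine into the precursor of taurine. Cdo1 stood at 794 against 1374 CPM in HFD mouse 2 and 515 against 579 CPM in HFD mouse 3 (log2 fold change -0.74, SE 0.23, but 0.069 with the deposited log values), and Csad at 570 against 965 and 193 against 231 CPM (-0.71, SE 0.27). Positive and negative cells of HFD mouse 3 held 8 and 5 UMIs of Cdo1, and 3 and 2 of Csad. In LFD mice Cdo1 had the other order, 1274 against 796 and 965 against 766 CPM, on 11 and 10 UMIs in positive cells. The difference between diets for Cdo1 had an unadjusted limma voom p of 0.0101 and did not pass adjustment. The peroxisomal thiolase gene Acaa1b was at 1924 against 2596 and 2125 against 4282 CPM (-0.52, SE 0.18). Ces1c, a secreted carboxylesterase, was at 1682 against 2202 and 1803 against 3588 CPM (-0.46, SE 0.19). Mgst1, a microsomal glutathione transferase, was at 6876 against 8464 and 8112 against 10301 CPM (-0.30, SE 0.12). Laptm4a, of the lysosomal membrane, had 14 and 30 UMIs and 1 and 5 UMIs (-1.30, SE 0.54).

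Genes of lipoprotein assembly showed no common direction beside Apoa4. The files hold 32 apolipoprotein and VLDL genes, and 17 of them were tested, 10 above and 7 below 0, with a median of 0.10, and 0 had an unadjusted p under 0.05. The neighbours of Apoa4 in the gene cluster lay slightly above 0. Apoc3, an inhibitor of triglyceride clearance, was at 6399 against 5474 CPM in HFD mouse 2 and 5794 against 4282 CPM in HFD mouse 3 (log2 fold change 0.27, SE 0.14, limma voom adjusted p = 0.943). Apoa1, the main HDL protein, was at 10127 against 8737 and 7404 against 6481 CPM (0.22, SE 0.14). Apoa5, an activator of lipoprotein lipase, was at 1513 against 1238 and 1996 against 1620 CPM (0.30, SE 0.19), and its sign turned in 4 alternatives. Apoc1 lay below 0, at 24047 against 26636 and 28393 against 33218 CPM (-0.16, SE 0.10), and Apoc2, the cofactor of lipoprotein lipase, above, at 1822 against 1591 and 2833 against 2083 CPM (0.24, SE 0.18, and below 0 at 2500 UMIs). Further tested members, Apof, Lcat, Apoe, P4hb, Apoc4, Apoa2, Apoh, Apob, Cideb, Apom and Apon, lay between -0.31 (Apof) and 0.28 (Apon). None of these differences exceeded 2 SE.

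CREBH targets were few. Of 7 tested, which include Apoa1, Apoc2 and Apoa5, 6 lay above and 1 below 0 (median 0.24), and the median went below that of all genes in 2 of 22 alternatives. Creb3l3 itself had 42 and 35 UMIs in positive and negative cells of HFD mouse 2 and 11 and 2 in HFD mouse 3 (log2 fold change 0.64, SE 0.38), with the other sign in 4 alternatives. Hnf4a, below the minimum and picked out after its values were seen, had 17 and 7 UMIs in HFD mouse 2 and 2 and 0 in HFD mouse 3.

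Tested fat oxidation and fat synthesis genes lay mostly on opposite sides of 0. Of 15 tested genes of ketogenesis and fatty acid oxidation 2 lay above and 13 below 0 (median -0.26), 8 of them lower in positive cells in both HFD mice beside 26.5% of all genes. At an unadjusted p under 0.05 there was 1, Acaa1b, beside 4.83% of all tested genes. Of 13 PPARA targets 3 lay above and 10 below (median -0.23). The sum of the 34 PPARA targets did not share that direction, at 65291 against 64421 CPM in HFD mouse 2 and 52148 against 51620 CPM in HFD mouse 3. Fabp1, the liver fatty acid binding protein, made 75.6% to 86.6% of these sums. Without it, left out after the values were seen, they were 8737 against 10304 and 9902 against 12616 CPM. Many members are in both lists. Of the 20 genes of fatty acid synthesis 4 were tested, and all 4 lay above 0 (median 0.37). These were Scd1, the stearoyl-CoA desaturase, at 1616 against 1423 and 1867 against 1389 CPM (0.22, SE 0.19, and below 0 at 1000 UMIs), Thrsp, at 411 against 370 and 1416 against 347 CPM (0.45, SE 0.38), Acly and Elovl2. Where more synthesis genes entered, not all lay above 0. The split was 3 of 5 above 0 at 1000 UMIs, 6 of 9 with all UMIs of the same cells and 7 of 11 without thinning. It was 8 of 9 with a halved minimum and 13 of 17 with a minimum of 1 UMI. The medians of these 3 lists kept their side of the median of all genes in all 22 alternatives, but their size moved. It ran from -0.30 to -0.11 for oxidation, from -0.30 to -0.041 for PPARA targets and from 0.10 to 0.65 for synthesis, and 0 genes of these lists passed the adjusted threshold.

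Lipid droplet genes were mixed, with 3 of 7 tested above and 4 below 0 (median -0.18). Plin2, the coat protein of lipid droplets, had 47 and 40 UMIs in positive and negative cells of HFD mouse 2 and 8 and 1 in HFD mouse 3 (log2 fold change 0.62, SE 0.37, limma voom adjusted p = 0.943). Hsd17b13, an enzyme on droplets that is also in the periportal list, was at 579 against 434 and 1288 against 579 CPM (0.52, SE 0.31). G0s2, an inhibitor of droplet lipolysis that was too low in HFD mouse 3 to be tested, had UMIs in 30 of 62 positive and 29 of 72 negative cells of HFD mouse 2. Its level there was 401 against 338 CPM.

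Genes that were picked in these mice because they differed by diet had no common order between the classes. Serpina3k, a protease inhibitor, was at 3942 against 3834 CPM in HFD mouse 2 and 2897 against 3704 CPM in HFD mouse 3. Orm1, an acute phase carrier, was at 514 against 418 and 515 against 694 CPM. Cyp4a14, a fatty acid omega-hydroxylase, was at 206 against 297 and 322 against 116 CPM, the last on 1 UMI. The order of the classes differed between the HFD mice for all 3 genes, and the fitted sign turned in 11 of 22, 7 of 22 and 3 of 19 alternatives.

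In LFD mice the same comparison rested on 11 positive cells. Of 590 genes tested by limma voom 0 passed an adjusted p of 0.05 (smallest 0.146), 45 had an unadjusted p under 0.05 (7.63%) and limma-trend also called 0. The LFD pericentral median was -0.61, with 1 of 10 above 0, and the periportal median was 0.33, with 15 of 20 above 0. The genes of smallest p in LFD mice were Hadha, Ugp2, Agpat2, mt-Rnr2 and Prodh2. Hadha, of mitochondrial fatty acid oxidation, had 0 UMIs in positive cells and 62 and 36 in negative cells of LFD mice 1 and 2. Ugp2, which makes UDP-glucose, had 0 against 53 and 24, and Agpat2, of triglyceride synthesis, 0 against 49 and 27. Over the positive cells of both LFD mice pooled, 0 of 18994 UMIs allow up to 158 CPM by counting error alone. Negative cells of LFD mice 1 and 2 were at 329 and 306 CPM for Hadha, 281 and 204 for Ugp2 and 260 and 230 for Agpat2. These genes were picked by their small p in the same cells. The limit takes no account of that choice or of the spread between mice, so it cannot show a lower level. None of the 3 passed by limma voom (adjusted p = 0.146 for Hadha, 0.175 for Ugp2 and Agpat2). The mitochondrial ribosomal RNA mt-Rnr2 was at 20266 against 37855 and 26354 against 32603 CPM. Prodh2, of hydroxyproline breakdown, was higher in positive cells of LFD mice 1 and 2, at 811 against 260 and 483 against 102 CPM. These levels rest on 7 and 5 UMIs in positive and 49 and 12 in negative cells.

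Whether the class difference itself differed between diets was tested as an interaction. By limma voom 0 of 590 genes passed (smallest adjusted p 0.570), 25 had an unadjusted p under 0.05 (4.24%) and limma-trend also called 0. The smallest unadjusted p values belonged to Ugp2, Plin2, Tmem50a, Hadha and Cdo1. Plin2 had 0 UMIs in positive and 35 and 25 in negative cells of LFD mice 1 and 2, against 47 and 40 in HFD mouse 2. Tmem50a, a membrane protein gene, had 0 UMIs in positive and 33 and 32 in negative LFD cells, and 24 and 19 in HFD mouse 2. For the first 4 of these genes the interaction rests on LFD positive cells with 0 UMIs in 8635 and 10359 UMIs of all genes.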

How the data were processed

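Drop-seq libraries of hepatocytes from 5 mice were made, per the labels. The submitters' processing notes name STAR 2.6.0a and the build mm10. How cells were filtered, genes annotated and doublets handled is not stated in the labels. The authors deposited the natural log of 1 plus a gene's UMIs scaled to 10000 per cell (judged from the values) and a smoothed (MAGIC) table read on the same natural log scale. All nonzero values (100%) were whole multiples of a cell's smallest step within 0.001, so UMIs were recovered. Cells were thinned at random to 1728 UMIs (the 25th percentile of all cells) and shallower cells dropped. Apoa4 classes were called on the thinned UMIs. No doublet caller was run.

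Thinned UMIs were summed per mouse and class and fitted with limma voom (limma 3.58.1, R 4.3.3), with the mouse as a block, over HFD mice 2 and 3 and LFD mice 1 and 2, with residual 2 and prior 13.3 degrees of freedom. Genes needed 30 UMIs in HFD mouse 2 and 5 in HFD mouse 3, and for LFD results also 10 in each LFD mouse. Genes were called at p under 0.05 after Benjamini-Hochberg adjustment. The planned trimmed-mean normalization was first run over all genes. Its factors, 0.663 to 1.53, followed the size of the sums, in which most genes are at 0 in the small ones. It was then restricted to 98 genes with 10 or more expected UMIs in the smallest sum (factors 0.952 to 1.04). That choice was made after the first results were seen and moved the HFD count of genes from 0 to 1.

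Shares have exact 95% binomial (Clopper-Pearson) intervals and UMI counts exact 95% Poisson intervals. These, and the limit set for 0 UMIs (3 counts), cover counting error only. Tested on simulated data for the HFD class comparison (556 genes), the model called 89.2% of genes changed 4-fold, 34.2% of those changed 2-fold and 0.985% of unchanged genes. The simulated sums shared a preset dispersion for every gene and mouse that was not estimated from these data, so the rates hold only for that dispersion. The median fold change of the unchanged genes was -0.14 on the log2 scale.

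The members, gene lists and rule for named genes were chosen with earlier results of these data known. Named are the 10 genes with the smallest p per direction and one sign in both HFD mice, up to 3 members of the 28 gene lists, the apolipoproteins, genes chosen by diet, and the 5 genes of smallest p of the LFD and diet-by-class comparisons, predicted models passed over. Alternatives covered thinning, class call, normalization, filters, tests and each mouse left out. HFD mouse 1, with 5 cells, entered only 1 alternative fit and is otherwise described.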

Additional observations from a re-analysis of the deposited data

Results flagged for a closer look

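Apoa4 was also found in HFD mouse 1, which was left out of the fits reported above. Its 5 kept cells held a mean of 1.8 Apoa4 UMIs each, above the mean of 0.0439 in LFD mouse 1 and 0.122 in LFD mouse 2. Of them 2 were positive, with medians of the zone score of -4.83 in the positive and -2.63 in the 3 negative cells. The negative cells held a median of 315 genes at 1728 UMIs, against 776 in the positive cells, and endothelial markers at 3086 CPM against 0 UMIs, and the part of these in the difference was not tested.

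The deposited smoothed table, which no comparison used, placed Apoa4 higher in HFD than in LFD cells. Its median over all cells, kept or not, was 0.801 in HFD mouse 2 and 0.790 in HFD mouse 3 on the natural log scale. In LFD mice 1 and 2 it was 0.704 and 0.700. Among kept cells of HFD mouse 2 the smoothed median was 0.810 in Apoa4 positive and 0.794 in negative cells. Among those of HFD mouse 3 it was 0.795 and 0.781. Smoothing averages over similar cells, so smoothed cells of one mouse are not separate measurements. Groups here held too few mice for a search for single outlying samples.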

How the results depend on the processing

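Counts of genes were not stable. In HFD mice limma called 0 genes when cells were thinned to 1000 or 2500 UMIs, with all UMIs of the same cells, with library size alone, a halved minimum, limma-trend, the deposited log values, HFD mouse 1 added and, added after the data were seen, the trimmed mean over all genes. It called 5 without thinning, 8 with positive from 2 Apoa4 UMIs (LFD mouse 1, with no such cell, left out), 4 in another draw, 7 with HFD mice alone and 3 with a minimum of 1 UMI. Without the replicate block of the paired classes it called 0, and with 1 mouse left out 0 to 4. LFD calls were 0 in the main analysis but 1 without thinning, 4 from 2 UMIs, 2 in another draw, 44 with a minimum of 1 UMI, 74 with the trimmed mean over all genes and 0 to 4 with 1 mouse left out. Interaction calls were 1 in another draw, 17 with a minimum of 1 UMI, 9 with the trimmed mean over all genes and 0 to 1 with 1 mouse left out. In 6 settings limma estimated infinite prior degrees of freedom, so that all genes shared 1 variance trend; the cause of the other differences was not tested.

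The mean zone difference of both HFD mice, -1.27, was -0.92 in another draw, -0.52 without thinning, -0.18 at 1000 and -0.45 at 2500 UMIs, and within 1 SD (0.16) of it in the other 5 settings. Positive shares moved with thinning. At 1000 UMIs, 2500 UMIs and without thinning they were 29.6%, 55.3% and 58.7% in HFD mouse 2, 33.3%, 66.7% and 48% in HFD mouse 3, 3.79%, 9.72% and 12.1% in LFD mouse 1, and 8.43%, 22% and 23.8% in LFD mouse 2.

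Of 686 values of 32 named genes 636 kept direction and side of the threshold, 21 came past it, 12 (all Mup20) lost it and 17 turned. At 1000 UMIs these were Itih3 -0.10, Iyd -0.12, Slc25a5 -0.086, Apoa5 -0.15, Creb3l3 -0.054 and Scd1 -0.010. At 2500 UMIs they were Apoa5 -0.22, Apoc2 -0.26, Creb3l3 -0.32 and Trf -0.013, and without thinning Itih3 -0.021, Apoa5 -0.18, Creb3l3 -0.24 and Trf -0.033. Apoa5 was -0.041 in another draw, Creb3l3 -0.031 with all UMIs and Cdo1 0.069 with the deposited log values. Depth limits HFD mouse 3 (15532 and 8640 thinned UMIs in its classes) and the LFD positive cells most.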

Other observations

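Lists of oxidative phosphorylation, protein folding, complement and coagulation, and urea and amino acid genes had median log2 fold changes of 0.10 or less. These compare Apoa4 positive with negative HFD cells. Of 54 tested nuclear genes of oxidative phosphorylation 30 lay above and 24 below 0 (median log2 fold change 0.06), and of 8 mitochondrially encoded transcripts 5 lay above and 3 below (0.09). The mitochondrially encoded share of UMIs was 5.64% in positive and 5.77% in negative cells of HFD mouse 2, and 5.07% and 4.94% in HFD mouse 3. Genes of protein folding in the endoplasmic reticulum divided 5 to 6, complement and coagulation genes 19 to 11 (median 0.10) and urea cycle and amino acid genes 14 to 10 (0.04). Ribosomal protein genes divided 9 to 4 (0.26), but their median was 0.25 in HFD mouse 2 and -0.36 in HFD mouse 3, and their summed share was 0.766% against 0.758% and 0.797% against 0.856%.

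Drug and steroid metabolism leaned to the negative cells, with 7 of 23 above and 16 below 0 (median -0.18), and so did bile acid genes, with 1 of 7 above and 6 below (-0.44); Cyp2e1, Slco1b2 and Akr1c6 belong to these lists and to the pericentral list. Gluconeogenesis and glycolysis genes leaned to the positive cells, with 7 of 9 above 0 (0.24), among them Pck1, which is in the periportal list. Of these 3 lists 0 genes passed the adjusted threshold by limma voom, and 2, 2 and 1 had an unadjusted p under 0.05 in the direction named, with 1 more (Cyp2f2) in the other direction among the drug and steroid genes. Over all 601 tested genes 4.83% had an unadjusted p under 0.05, and 297 lay above and 304 below 0. The counts in these small lists were not tested against those shares.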
